A study of Rattus norvegicus with 20 samples.

Results

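Blood-cell and macrophage marker genes were followed in rat bone marrow mesenchymal stromal cells (MSCs) over 5 weeks of culture on soft and stiff surfaces. The 7 genes are Ptprc (ENSRNOG00000000655), Cd68 (ENSRNOG00000037563), Itgam (ENSRNOG00000019728), Cd74 (ENSRNOG00000018735), RT1-Da (ENSRNOG00000032844), Aif1 (ENSRNOG00000000853) and Cd14 (ENSRNOG00000017819). They were taken by their Ensembl identifiers, as markers of the non-stromal cells of marrow, from a table of 30560 genes. All 7 had enough counts to be among the 14034 genes tested. The identifiers were paired with these symbols by the rule that chose the genes, since the table holds identifiers without symbols, and for the same reason markers of stromal cells were not examined here.

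Marrow from the femurs and tibias of a single female Wistar rat made up a batch, was plated straight onto gelatin-coated silicone, and the adherent cells were passaged every week in medium with fetal bovine serum. The surfaces had a stiffness of 2 kPa (soft) or 100 kPa (stiff). Cells were harvested after 1 week (1w2 and 1w100), after 3 weeks (3w2 and 3w100), or after 5 weeks on the same stiffness (5w2 and 5w100) or with a switch of stiffness after 3 weeks (3w2→2w100, soft then stiff, and 3w100→2w2, stiff then soft). The 1-week and 3-week groups had 3 libraries each and the 5-week groups had 2 each, 20 in all. No group is described as carrying a transgene or receiving a drug. The methods describe a positive selection with beads against CD54 and CD90 after a first passage, meant to enrich MSCs and remove blood cells. They do not say which of the libraries were made before it. The sample labels call the 1-week, 3-week and 5-week groups passage 1, 3 and 5. The methods also describe an initial expansion passage, after which purity was checked and weekly passages followed. They do not say whether the weeks count from plating or from the end of that passage. The replicates are described as MSCs of different rats. Totals per library were 16127907 to 24139128 counts. A count of 0 allows up to 3 counts, which at these depths is 0.124 to 0.186 CPM (counts per 1000000 counts of the library) in each, for counting error only.

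Marrow holds blood cells beside the rare stromal cells, and macrophages adhere to culture surfaces much as stromal cells do, so that early marrow cultures are mixed until passaging or sorting removes the blood lineage. Ptprc encodes CD45, the tyrosine phosphatase on the surface of nearly all nucleated blood cells, and its absence is part of the usual definition of MSCs. Itgam encodes CD11b, the integrin alpha M chain of macrophages, monocytes and neutrophils, Cd68 a lysosomal glycoprotein abundant in macrophages, and Aif1 (Iba1) an actin-binding protein of macrophages and microglia. RT1-Da encodes the alpha chain of the rat MHC class II molecule that corresponds to human HLA-DR, and Cd74 the invariant chain that guides class II molecules through the cell. Both are high in cells that present antigen to T cells. Cd14 is a receptor that hands bacterial lipopolysaccharide to Toll-like receptor 4, and it is found on monocytes and macrophages and also on other cells, fibroblast-like cells among them.

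The promoters of some of the members that moved together are shown with a short motif in capitals. The first pair below are from the general marker of blood cells and from a myeloid integrin, and capitals mark GAGGAA on either strand, the core of the PU box read by the myeloid factor PU.1. The second pair are from the class II chain and its chaperone, and capitals mark TAGCAAC, the core of the X1 box shared by class II promoters. Each run is the 200 bases before the gene's start, 5′ to 3′ on the gene's strand, from RefSeq on the build GRCr8, at chr13:52259747-52259946 (minus strand), chr1:192089392-192089591 (plus), chr18:56527006-56527205 (plus) and chr20:4515215-4515414 (plus).
Ptprc: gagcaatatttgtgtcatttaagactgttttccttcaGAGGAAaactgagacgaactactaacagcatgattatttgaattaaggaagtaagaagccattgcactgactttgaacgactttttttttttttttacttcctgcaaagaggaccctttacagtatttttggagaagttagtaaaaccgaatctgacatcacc
Itgam: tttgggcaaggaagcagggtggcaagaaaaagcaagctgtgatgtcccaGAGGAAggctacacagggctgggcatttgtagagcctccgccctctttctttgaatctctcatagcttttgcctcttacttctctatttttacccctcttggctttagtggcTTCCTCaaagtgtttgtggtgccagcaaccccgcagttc
Cd74: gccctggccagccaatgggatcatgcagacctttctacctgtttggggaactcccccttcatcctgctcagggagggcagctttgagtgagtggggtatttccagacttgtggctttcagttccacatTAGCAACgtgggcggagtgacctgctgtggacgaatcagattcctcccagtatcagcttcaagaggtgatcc
RT1-Da: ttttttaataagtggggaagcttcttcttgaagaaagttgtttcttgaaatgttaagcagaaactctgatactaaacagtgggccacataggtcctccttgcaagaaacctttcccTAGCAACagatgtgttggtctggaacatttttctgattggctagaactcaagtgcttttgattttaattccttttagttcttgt

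Both motifs were searched on both strands of the 250 bases before the start, and their letters were chosen after the sequences had been seen. The table had a promoter for 6 of the 7 members, all but Aif1. GAGGAA was in 5 of these 6 promoters, those of Ptprc, Itgam, Cd68, Cd74 and Cd14, and in 23.3% of all 33469 promoters in the table. TAGCAAC was in the promoters of Cd74, where it began 72 bases before the start, and RT1-Da, where it began 84 bases before it, and in 2.88% of all promoters. The search found the motifs at places that do not overlap, and the GAGGAA of Cd74, on the opposite strand, is left in lower case above. The matches describe letters in the window and are not binding data.

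At 1 week the markers were plainly present on both surfaces, and by 3 weeks 6 of the 7 had fallen to a small remainder. Ptprc was at 344, 167 and 231 counts in the 1w2 libraries (replicates 1, 2 and 3) and at 408, 248 and 351 in the 1w100 libraries. At 3 weeks it was at 2, 0 and 5 counts in 3w2 and 1, 3 and 7 in 3w100, and it had no count in any of the 8 libraries at 5 weeks. Every 1-week library stood above every later one, the lowest at 1 week being 25.7-fold above the highest at 3 weeks in CPM scaled by edgeR's TMM factors. The mean CPM of Ptprc was 14.8 ± 3.44 (SD, n = 6) at 1 week and 0.152 ± 0.137 (n = 6) at 3 weeks, which is 1.03% of the 1-week mean. In bulk RNA such a fall does not tell fewer blood cells apart from less RNA per cell.

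In edgeR's quasi-likelihood test across all genes, all 7 members were lower at 3 weeks than at 1 week over both surfaces, with Benjamini-Hochberg adjusted p from 4.31e-06 to 0.00651. Of all genes tested, 10.4% were called lower in this comparison. The members' median log2 fold change was -5.37, beside -0.0013 over all genes, and their range was -6.57 to -1.04. Only 225 of the 14034 genes fell by 4 or more on the log2 scale, 5 of the 7 members among them. Ptprc, Itgam and Aif1 were in this test by their 1-week counts, so a fall was the direction open to them. The members were also chosen with earlier results of these data known, so the shares of all genes are given as a description. The 3-week and 1-week samples also differ by passages, and, as far as the methods say, possibly by the bead selection, and these cannot be told apart from time.

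The myeloid genes Itgam and Aif1 followed Ptprc. Itgam was at 308, 110 and 161 counts in 1w2 and 422, 222 and 332 in 1w100. It was at 4, 0 and 6 counts in 3w2, at 2, 1 and 10 in 3w100, and at 2 counts in all 8 libraries of 5 weeks together. Aif1 was at 122, 74 and 133 counts in 1w2 and 159, 100 and 158 in 1w100, then at 0, 0 and 5 in 3w2 and 3, 2 and 5 in 3w100, and at 0 in each 5-week library. The 1-week and 3-week values did not overlap for either gene. By 3 weeks the mean CPM of Itgam was 1.46% of its 1-week mean and that of Aif1 1.94%. From 1 to 3 weeks Itgam fell by 6.0 on the log2 scale (SE 0.51, 95% confidence interval -7.11 to -4.90, adjusted p = 8.89e-06, edgeR). Aif1 fell by 5.66 (SE 0.49, interval -6.75 to -4.57, adjusted p = 2.72e-05, edgeR).

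At 5 weeks the bounds set by depth were low. With 3 counts allowed over the 8 libraries together (0.0201 CPM), Ptprc was at least 737-fold higher at 1 week than at 5 weeks, and Aif1 at least 318-fold higher. The 2 Itgam counts at 5 weeks came from a 5w100 library and a 3w100→2w2 library, 1 count in each.

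**Figure D1:**
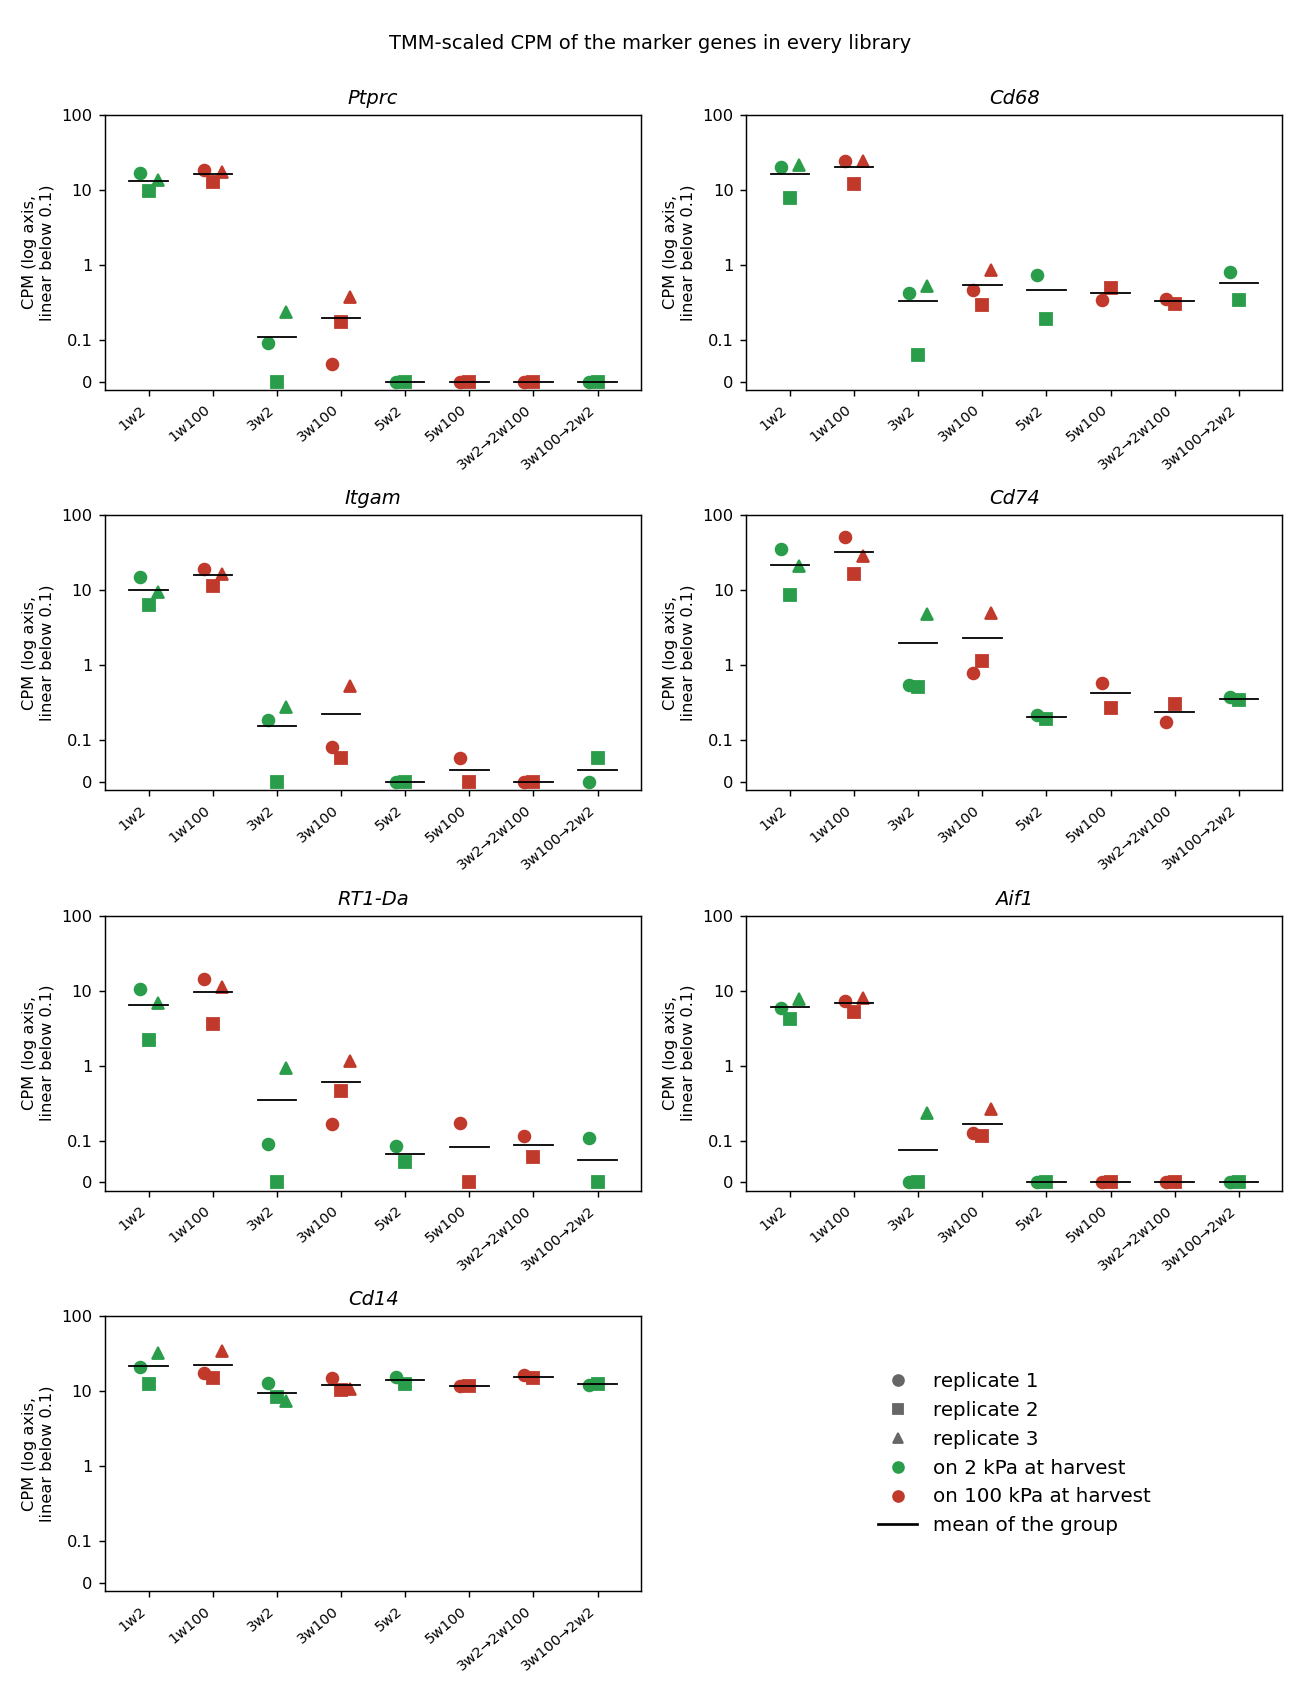
TMM-scaled CPM (log axis, linear below 0.1) of the 7 marker genes in each of the 20 libraries, by group, with the mean of each group as a bar, symbols for the replicate number and colour for the stiffness at harvest (green 2 kPa, red 100 kPa). Ptprc, Itgam and Aif1 drop from the 1-week level to at or near 0 at 5 weeks, Cd68 stays between 0.192 and 0.812 CPM at 5 weeks, replicate 3 (triangles) is the highest of its group at 3 weeks for every gene but Cd14, and Cd14 stays between 7.28 and 34.1 CPM throughout.

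Cd68 fell with the others up to 3 weeks and was at much the same low level at 5 weeks. Its counts were 409, 135 and 368 in 1w2 and 529, 229 and 487 in 1w100. At 3 weeks they were 9, 1 and 11 in 3w2 and 11, 5 and 16 in 3w100. At 5 weeks they were 17 and 4 in 5w2, 6 and 9 in 5w100, 6 and 5 in 3w2→2w100 and 15 and 6 in 3w100→2w2, so that no library of the series was without Cd68 reads. As a share of the 1-week mean CPM, Cd68 stood at 2.37% at 3 weeks and, over all 8 libraries of that time, 2.45% at 5 weeks. The log2 fold change from 1 to 3 weeks was -5.37 (SE 0.43, interval -6.29 to -4.46, adjusted p = 4.31e-06, edgeR). From 3 weeks to 5w2 and 5w100 it was 0.04 (interval -1.10 to 1.18, adjusted p = 0.987, edgeR), an interval that holds both directions.

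The proportions between Cd68 and the other markers differed between early and late cultures, as a description of small counts. Within 1 library the lengths of the genes do not affect how such a ratio compares with the same ratio in another library. At 1 week Cd68 had 2157 counts and Ptprc 1749 over the 6 libraries, and the ratio ran from 0.808 to 1.59 in single libraries. At 3 weeks the sums were 53 and 18. At 5 weeks there were 68 Cd68 counts and 0 of Ptprc. Had the other genes kept their 1-week ratio to Cd68, the 68 counts at 5 weeks would go with 55.1 counts of Ptprc, 49.0 of Itgam and 23.5 of Aif1, where 0, 2 and 0 were found. The class II genes departed less from it, with 45 counts of Cd74 against 103 and 11 of RT1-Da against 30.8. The source of the remaining Cd68 reads was not tested.

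The class II genes Cd74 and RT1-Da kept a larger share of their 1-week level at 3 weeks than Ptprc, Cd68, Itgam and Aif1 did, a difference between genes that was not tested. Replicate 3 held 197 of the 256 Cd74 counts and 42 of the 56 RT1-Da counts of 3 weeks. The share was also larger in the mean of the other 4 libraries, but for RT1-Da on few counts, 8 of 14 being from 3w100 replicate 2. On the soft surface without 3w2 replicate 3, the log2 fold change of RT1-Da was -6.78. That was a larger fall than those of Cd68 (-5.94) and Itgam (-6.52) and a smaller one than those of Ptprc (-7.80) and Aif1 (-9.84). Cd74 was at 728, 153 and 365 counts in 1w2 and 1108, 322 and 578 in 1w100. At 3 weeks it was at 12, 8 and 102 counts in 3w2 and 19, 20 and 95 in 3w100, with replicate 3 several times the others on both surfaces. RT1-Da was at 215, 38 and 117 counts in 1w2 and 312, 69 and 227 in 1w100. At 3 weeks it was at 2, 0 and 20 counts in 3w2 and 4, 8 and 22 in 3w100, again highest in replicate 3. The same replicate was also highest on both surfaces at 3 weeks for Ptprc, Itgam, Aif1 and Cd68, and summed over these 6 genes its CPM was 7.003 in 3w2 and 8.21 in 3w100, against 0.576 to 2.25 in the other 4 libraries. The 1-week and 3-week libraries did not overlap for either gene, but by a narrow margin, since the lowest 1-week CPM was 1.74-fold above the highest 3-week CPM for Cd74 and 1.86-fold for RT1-Da. The mean CPM at 3 weeks was 7.95% of the 1-week mean for Cd74 and 5.82% for RT1-Da.

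From 1 to 3 weeks Cd74 fell by 3.62 on the log2 scale (SE 0.58, interval -4.86 to -2.38, adjusted p = 0.000496, edgeR). RT1-Da fell by 4.09 (SE 0.67, interval -5.53 to -2.65, adjusted p = 0.000606, edgeR). These values turn on replicate 3. Without 3w2 replicate 3 the log2 fold change of Cd74 was -4.56 and that of RT1-Da -5.41, and without 3w100 replicate 3 that of Cd74 was -4.25. Without both of these libraries, left out once their values had been seen, Cd74 was at -5.19 and RT1-Da at -5.88. All 7 members were still called then, and the other falls also became steeper except for Cd14 (-0.93), with -7.54 for Ptprc, -7.08 for Itgam (-6.76 without 3w100 replicate 3 alone), -5.82 for Cd68 and -7.78 for Aif1 (-7.56 without 3w2 replicate 3 alone, which leaves 3w2 at 0). The mean CPM of the other 4 libraries of 3 weeks was 2.80% of the 1-week mean for Cd74 and 2.23% for RT1-Da, beside 0.520% for Ptprc, 0.628% for Itgam, 0.947% for Aif1 and 1.69% for Cd68. No 5-week library carries the number 3, so none can be set beside the 3-week libraries of replicate 3 by number. No source says that a number marks a rat. At 5 weeks Cd74 was at 3 to 10 counts per library and RT1-Da at 0 to 3, which is 1.14% and 0.913% of their 1-week means. RT1-Da lies in the highly variable MHC, the reads are of Wistar rats and the reference is of another strain, and the effect of that on its counts was not tested.

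The ratio of Cd74 to Ptprc counts lay between 0.916 and 2.72 in the 6 libraries of 1 week and between 6 and 20.4 in the 5 of 3 weeks that had a Ptprc count. The ranges did not overlap, but the Ptprc counts behind the later ratios were 1 to 7, so each is imprecise. Summed over libraries, there were 3254 Cd74 and 1749 Ptprc counts at 1 week and 256 and 18 at 3 weeks. The higher ratio was not a matter of replicate 3 alone, since replicates 1 and 2 had 19 and 6.67 in 3w100 and replicate 1 had 6 in 3w2. The ratio of RT1-Da to Cd74 counts moved less. It was 0.301 over the 1-week libraries, 0.219 over the 3-week libraries and 0.244 over the 5-week libraries, as ratios of summed counts.

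**Figure D2:**
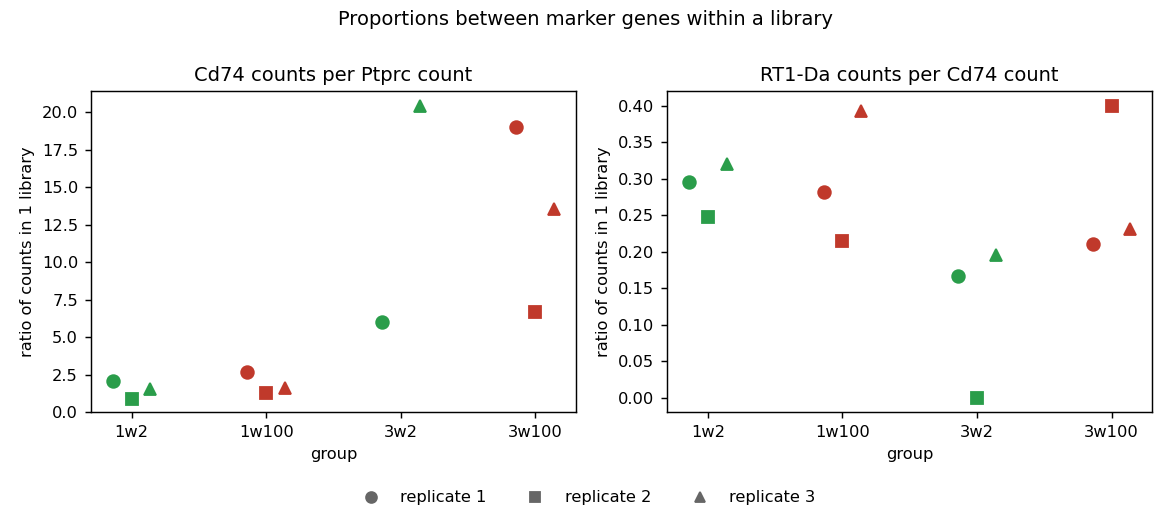
Counts of Cd74 per count of Ptprc (left) and of RT1-Da per count of Cd74 (right) in single libraries of the 1-week and 3-week groups, with symbols for the replicate number and colour for the surface (green 2 kPa, red 100 kPa). The left ratio lies between 0.916 and 2.72 in 1-week libraries and between 6 and 20.4 in 3-week libraries, with 3w2 replicate 2 missing for want of a Ptprc count, while the right ratio overlaps between the times.

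Cd14 kept much more of its 1-week level than the other members. It was at 431, 215 and 558 counts in 1w2 and 385, 286 and 682 in 1w100, at 279, 132 and 155 in 3w2 and 352, 178 and 203 in 3w100. At 5 weeks it had 360 and 259 counts in 5w2, 204 and 213 in 5w100, 280 and 245 in 3w2→2w100 and 225 and 221 in 3w100→2w2. The CPM overlapped between times, between 12.3 and 34.1 in the 1-week libraries, between 7.28 and 14.8 in the 3-week libraries and between 11.7 and 16.3 in the 5-week libraries. The mean at 3 weeks was 48.7% of the 1-week mean and that at 5 weeks 60.8%. Cd14 was called lower at 3 weeks than at 1 week, with a log2 fold change of -1.04 (SE 0.24, interval -1.56 to -0.53, adjusted p = 0.00651, edgeR), and this interval overlapped that of no other member. Replicate 3 had the highest Cd14 CPM of its group at 1 week on both surfaces.

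Over the single surfaces, all 7 members were called lower in 3w2 than in 1w2, where 4.3% of all genes were, and 6 of 7 were called lower in 3w100 than in 1w100, where 4.56% were. The member not called on the stiff surface was Cd14, with a log2 fold change of -0.89 (interval -1.61 to -0.17, adjusted p = 0.127, edgeR). On the soft surface it was -1.20 (interval -1.93 to -0.47, adjusted p = 0.0450, edgeR). The soft-surface count was fragile: it was 4 of 7 in a fit of these groups alone, 4 without 1w2 replicate 1 and 4 without 3w2 replicate 2, where Cd74, RT1-Da and Cd14 were the members lost. Without 3w2 replicate 1 it was 5, Cd74 and RT1-Da being lost, and without 1w2 replicate 3 or 3w2 replicate 3 it was 6, Cd14 being lost. On the stiff surface it was 4 without 3w100 replicate 2, where Cd74 and RT1-Da were lost, and 5 without 1w100 or 3w100 replicate 1, where RT1-Da was lost. Ptprc, Cd68, Itgam and Aif1 were called in each of these fits for the surface it concerned. As over both surfaces, Ptprc, Itgam and Aif1 were in the fits by their 1-week counts. The difference between the surfaces in the change from 1 to 3 weeks was called for 0 of 7 members and 0% of genes (222 genes at an unadjusted p under 0.05, none of them a member), and the intervals were wide, for Cd74 -2.68 to 1.99.

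From 3 to 5 weeks (5w2 and 5w100, without the switched groups) no member was called by edgeR, with 0.0285% of genes called (4 of 14034). At an unadjusted p under 0.05 were 2042 genes. Among them were 5 of the 7 members, all lower at 5 weeks: Ptprc, Itgam, Cd74, RT1-Da and Aif1. For Cd74 the log2 fold change was -2.84 (SE 0.86, interval -4.67 to -1.02, adjusted p = 0.189, edgeR) and for RT1-Da -2.51 (SE 1.09, interval -4.84 to -0.17, adjusted p = 0.309, edgeR). Both rest largely on the 3-week libraries of replicate 3, a number that no 5-week library carries. Without 3w2 replicate 3 they were -1.90 and -1.19, without 3w100 replicate 3 -2.22 and -2.04, and without both -1.27 (adjusted p = 0.628, edgeR) and -0.72 (adjusted p = 0.926, edgeR). Ptprc, Itgam and Aif1 had too few counts for the comparison, with 18, 23 and 15 counts in all at 3 weeks. They were in the test by their 1-week counts, and in a fit of only the 3-week and 5-week groups, where 4 members were tested, they did not pass the filter on low counts. DESeq2 called Ptprc (adjusted p = 0.0284) and Cd74 (adjusted p = 0.00729) lower at 5 weeks, in a fit of all libraries with replicate 3 that called 1.96% of genes. From 1 to 5 weeks all 7 members were called lower, where 16.5% of genes were. For Cd14 this call, at a log2 fold change of -0.79 (adjusted p = 0.0379, edgeR), was lost in 10 of 17 alternatives, with adjusted p from 0.0114 to 0.123 over them. The lost ones include the fit with the replicate block (adjusted p = 0.0863) and the fits without 1w2 replicate 1 or 3, without 1w100 replicate 3 and without any single 5w2 or 5w100 library.

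**Figure D3:**
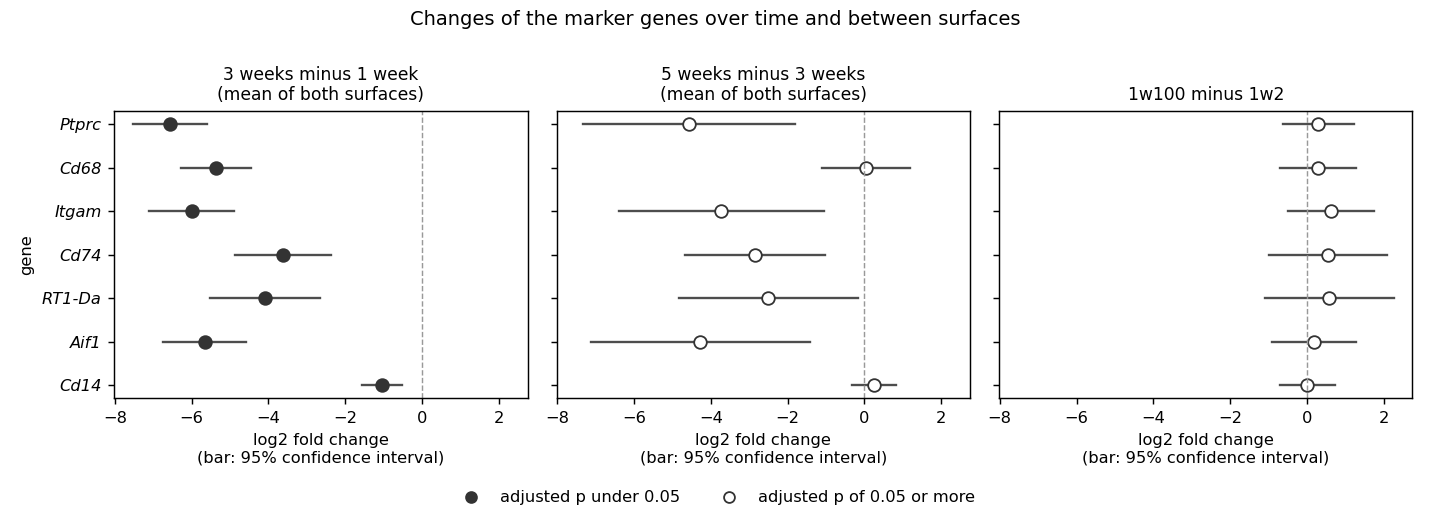
Log2 fold changes of the 7 marker genes with 95% confidence intervals from edgeR. They are for 3 weeks minus 1 week, 5 weeks (5w2 and 5w100) minus 3 weeks and 1w100 minus 1w2, filled where the adjusted p is under 0.05. All 7 are filled on the left, from -6.57 to -1.04, and none in the other panels, where Ptprc, Itgam and Aif1 rest on few counts between 3 and 5 weeks, Cd68 and Cd14 lie near 0, and the stiff-soft differences at 1 week are 0.02 to 0.63.

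At 1 week, when the markers were high, each of the 6 genes other than Cd14 was higher on the stiff than on the soft surface within every replicate number. All 18 pairs had this direction, with ratios of stiff to soft CPM from 1.02 to 1.91. The share of all genes that were higher on the stiff surface in every number was not counted. For Itgam the ratios were 1.28 to 1.83, for Cd74 1.36 to 1.91 and for RT1-Da 1.36 to 1.67. They were smaller for Ptprc (1.11 to 1.35), Cd68 (1.14 to 1.54) and Aif1 (1.02 to 1.23), and for Cd14 they were 0.837 to 1.21, above 1 in 2 of 3 pairs. The 6 genes are not independent measures, since they were high and low together between libraries. In the fit without 1w2 replicate 2, the lowest library, the differences of Cd68 (-0.04), Aif1 (-0.01) and Cd14 (-0.27) turned to the other sign on the log2 scale.

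Between numbers the spread was larger than between surfaces. Replicate 2 was the lowest on both surfaces for all 7 members, and Cd74 in 1w100 ran from 16.7 to 50.5 CPM. Summed over the 6 genes, CPM was 103, 38.7 and 80.0 in 1w2 (replicates 1, 2 and 3) and 134, 61.6 and 107 in 1w100. Without regard to the number, 0 of 7 members and 0% of genes were called between 1w100 and 1w2 by edgeR (54 genes at an unadjusted p under 0.05, no member among them) and no member was called by DESeq2. The intervals of the log2 fold change held both directions for every member, for Itgam -0.50 to 1.76 around 0.63 and for Ptprc -0.63 to 1.24 around 0.30.

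Libraries of the same number deviated together at 1 week (r = 0.626 to 0.777 across genes for the 3 pairs), which makes the pairing usable there. With the replicate block in a fit of only 1w2 and 1w100, Itgam (log2 fold change 0.64, adjusted p = 0.0415, edgeR) and Cd74 (0.58, adjusted p = 0.0227, edgeR) were called higher on the stiff surface, beside 0.295% of all genes. RT1-Da had 0.59 with an adjusted p of 0.0852, Ptprc 0.30 with 0.308, Cd68 0.32 with 0.281 and Aif1 0.19 with 0.815. With the block in the fit of all 20 libraries, none was called. The call for these genes thus rests on the pairing of 3 numbers at 1 week.

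**Figure D4:**
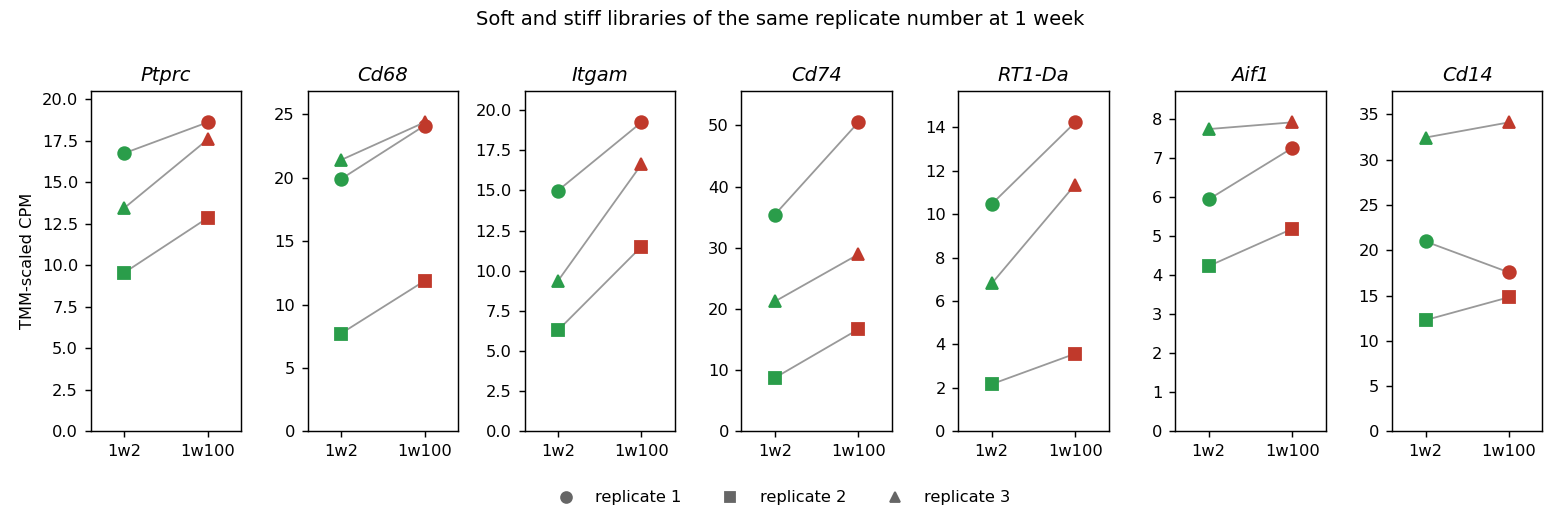
TMM-scaled CPM of each marker gene at 1 week on the soft (1w2, green) and stiff (1w100, red) surface, with lines joining libraries of the same replicate number. The lines rise in all 18 pairs of the 6 genes other than Cd14, by 1.02-fold to 1.91-fold, and replicate 2 (squares) is the lowest of the 3 on both surfaces in every panel.

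At later times no member was called between surfaces, and most were in these tests by their 1-week counts. Between 3w100 and 3w2, 0 of 7 members and 0% of genes were called by edgeR (863 genes at an unadjusted p under 0.05, none a member). All 7 fitted log2 fold changes were above 0, from 0.21 to 0.94, on counts per library of 8 to 102 for Cd74, 132 to 352 for Cd14 and 0 to 22 for the rest. Between 5w100 and 5w2, 0 of 7 members and 0.264% of genes were called. For the priming surface (5w100 and 3w100→2w2 against 5w2 and 3w2→2w100), 0 of 7 members were called beside 9.75% of genes, and for the current surface (5w100 and 3w2→2w100 against 5w2 and 3w100→2w2) 0 of 7 beside 0% of genes. No member had an unadjusted p under 0.05 in these 5-week comparisons, and DESeq2 called none. For Ptprc, Aif1 and Itgam there were at most 2 counts in all to compare at 5 weeks, so a difference was not detectable at this depth. In fits of only the groups compared, the filter on low counts left 2 members for 3w100 against 3w2 and 1 for 5w100 against 5w2. It left 2 each for the priming and the current surface, so the counts of 0 of 7 say little about the rest. For Cd14, with 204 to 360 counts per library, the log2 fold change for the priming surface was -0.30 (interval -0.92 to 0.33).

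The order of the group means in CPM was 1w100, 1w2, 3w100, 3w2 and then the 5-week groups for Ptprc, Itgam, Cd74, RT1-Da and Aif1. No 1w2 library was as low as a 3w100 library in these genes, while 1w100 overlapped 1w2 and 3w100 overlapped 3w2. For Ptprc the means were 16.3 ± 3.07 in 1w100, 13.2 ± 3.60 in 1w2, 0.195 ± 0.166 in 3w100 and 0.109 ± 0.118 in 3w2 (SD, n = 3 each). For Cd68 the groups of 3 and 5 weeks were mingled, from 0.326 ± 0.0340 in 3w2→2w100 (n = 2) to 0.576 ± 0.333 in 3w100→2w2 (n = 2). For Cd14 the order was 1w100, 1w2, 3w2→2w100, 5w2, 3w100→2w2, 3w100, 5w100 and 3w2, with means of 22.2 ± 10.5 CPM (n = 3) at the top and 9.54 ± 2.96 (n = 3) at the bottom, and each group overlapped its neighbour in that order.

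Across the 20 libraries the members other than Cd14 had like profiles, as a description of log2 CPM values. These values form 2 clusters (1 week and later) and share 1 step. Ptprc correlated at r = 0.997 with ENSRNOG00000017874 and Itgam at r = 0.994 with ENSRNOG00000012172, neither of which has a symbol in the table. Ptprc had r above 0.95 with 185 genes, 5 other members among them. Cd74 and RT1-Da were each other's nearest gene of all tested, at r = 0.979, and each had 4 other members above 0.95. Cd68 had 3 members above 0.95, and Cd14 had no gene above 0.95, its nearest standing at r = 0.906.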

How the data were processed

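Bulk RNA-seq of 20 libraries in 8 groups was analysed, with groups and replicate numbers from the sample labels. The deposited table holds raw counts per Ensembl gene for poly(A) RNA of stranded libraries, for which the authors' reads were trimmed with TrimGalore!, checked with FastQC, mapped to mRatBN7.2 with HISAT2 and counted with FeatureCounts. Not given in the sources used here were tool versions, the strand setting and what was done with multi-mapping reads, and overlapping or near-identical genes may be miscounted. Of the 30560 rows, 0 named no gene, and 0 columns of samples were left unused.

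Tests used edgeR 4.0.16 under R 4.3.3 (scaling by TMM, filterByExpr with a minimum count of 10 and total of 15, quasi-likelihood test) in 1 model of 8 groups without a block. A gene was called at a Benjamini-Hochberg adjusted p below 0.05 over 14034 genes. Tests of 5 weeks against earlier times used 5w2 and 5w100 only. The shares of the 1-week mean at 5 weeks used all 8 libraries of that time. CPM use TMM factors, and log2 CPM for correlations add a prior count of 2. Confidence intervals are at 95%. Alternatives were DESeq2 1.42.0, RLE factors, no filter or a mean of at least 10 counts, the replicate number as a block, only the groups compared, and each library left out in turn. Where that left 1 library in a group, its spread was taken from the other groups. The fits were tested on simulated data. Scaling by RLE in place of TMM shifted the median over all genes by at most 0.015 on the log2 scale.

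Replicate numbers were checked by correlating, over genes, how far libraries lay from their group's mean. With a threshold of r above 0.1 in each pair, numbers pair the libraries at 1 week (0.626 to 0.777) and within 5 weeks (0.168 to 0.802), and not at 3 weeks (0.0840 to 0.465) or between 1 and 3 weeks (-0.00047 to 0.373). This rests on the values, as no source says that a number marks a rat. No libraries of a group agreed within sampling noise.

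The members and lists were chosen with earlier results of these data known. The named genes are the 7 members and, for likeness, the 3 genes of highest Pearson r with each, of which 2 identifiers outside the members are printed. Lists of other pathway and cell type genes were not used here, because the reference table pairs 0 Ensembl identifiers with symbols.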

Additional observations from a re-analysis of the deposited data

How the results depend on the processing

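The number of members called between 3 weeks and 1 week was 7 under every alternative run. Counts that moved by more than 1.5 times were those of 3w2 against 1w2 (4 in the fit of only these groups, 4 in the same fit with the replicate block, and 4 to 7 over the libraries left out, against 7), of 5 weeks against 3 weeks (2 with DESeq2, against 0) and of 1w100 against 1w2 (2 in the fit of only these groups with the replicate block, against 0). With the replicate block on all libraries, the counts were 7 for 3 weeks against 1 week, 6 for 5 weeks against 1 week, where Cd14 was lost, and 0 for 1w100 against 1w2. Genes called between 5 weeks and 3 weeks numbered 4 with edgeR and 289 with DESeq2, and between 1w100 and 1w2 0 with edgeR and 39 in the paired fit of only these groups. The sign of the log2 fold change turned in values that were not called. For Cd68 between 5 weeks and 3 weeks (0.04), the fits without 1 library each ran from -0.59 to 0.36, below 0 without 3w2 replicate 2, 3w100 replicate 1 or 2, 5w2 replicate 1 or 5w100 replicate 2. Between 1w100 and 1w2 such fits ran from -0.038 to 0.57 for Cd68 and from -0.012 to 0.42 for Aif1, both below 0 without 1w2 replicate 2, and from -0.44 to 0.42 for Cd14, below 0 without 1w2 replicate 1, 1w2 replicate 2 or 1w100 replicate 3. The cause was not tested. Both 3-week libraries of replicate 3 were left out after the values were seen, and this moved Cd14 between 3w2 and 1w2 to an adjusted p of 0.145 (edgeR). Depth limits what 3-week and 5-week counts near 0 can show.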
